A study of Mus musculus with 22 samples.

Results

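The induced tissues of a doxycycline-inducible mouse model of fallopian tube-derived ovarian cancer were compared by the Brca gene that had been deleted. The members were the doxycycline-induced fallopian tubes (FT) and metastatic tumors (M), 10 of the 22 samples in the series, of which 3 carried a Brca1 deletion and 7 a Brca2 deletion. They were chosen by genotype alone and not by any measured value. The genotypes came from the study's genotype list, matched on the sample name that opens each label, because the labels themselves give tissue and not genotype.

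Cre was driven by Pax8 in the secretory cells of the tube after doxycycline. Among the FT, the only Brca1 sample was FT2 (Brca1 -/-). The Brca2 samples were FT1, FT3 and FT5 (each Brca2 -/+) and FT4 (Brca2 -/-). Among the M, the Brca1 samples were M2 and M6 (both Brca1 -/+), and the Brca2 samples were M1 and M3 (both Brca2 -/-) and M4 (Brca2 -/+). M6 was the only tumor from the ovary, and the others were peritoneal. The only Brca1 tube was homozygous and both Brca1 tumors were heterozygous, and the groups also differed in another engineered allele, so that the Brca gene cannot be told apart from these differences. The study took tube and tumor from the same mouse in some cases without naming them, so p-values treat samples as separate that may share a mouse. Uninduced control tubes (CT) carried the floxed alleles, Brca1 in 3 and Brca2 in 2 samples. Ages were not given in the sources used here.

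The assay was the NanoString nCounter mouse miRNA panel, which counts 1 fluorescent barcode for each of 566 mouse miRNA probes. The miRNA counts summed to between 70164 and 598321 per sample. Counts were scaled within each sample to 1 fixed set, the 100 miRNAs with the highest mean in tissue, and are called normalized counts. The detection level of a sample is the mean plus 2 SD of its 8 negative hybridization controls, and between 97 and 208 miRNAs per sample lay above it. FT2 stood apart in the housekeeping mRNAs on the panel, with a normalized geometric mean of 14449 against 240.5 to 3904 in the other FT, although M4 was at 16169. FT2 is the whole Brca1 side of the tube comparison, so values without it are given for the called miRNAs, for the lists and for most of the named miRNAs. Without FT2 no Brca1 tube remains, so such a value compares the Brca1 and Brca2 tumors only.

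Brca1 and Brca2 both act in homologous recombination, the repair of double-strand breaks from an intact template. Brca1 also acts in end resection and at replication forks and has been tied to the processing of some miRNA precursors, while Brca2 acts in strand exchange. Loss of either is characteristic of high-grade serous carcinoma, which often begins in the secretory cells of the tube. An miRNA recognizes its targets mainly through its seed, the bases 2 to 8 from the 5′ end.

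The miRNAs on which the comparison turned are shown with the seed in capitals and the remaining bases in lower case, 5′ to 3′, as listed by RefSeq for GRCm38.p6. Of 18 names looked up, 14 had a mature sequence there. Panel names without an arm were taken as the arm that the older name stood for. The first 4 come from 1 imprinted cluster of chromosome 12 and are shown because the first 2 passed the test and the other two had the highest values in FT2 or M2.
miR-382 (miR-382-5p, chr12:109733781-109733802, plus strand): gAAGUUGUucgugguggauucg
miR-127 (miR-127-3p, chr12:109592888-109592909, plus strand): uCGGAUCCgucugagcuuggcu
miR-134 (miR-134-5p, chr12:109734145-109734166, plus strand): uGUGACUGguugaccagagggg
miR-329 (miR-329-3p, chr12:109713541-109713562, plus strand): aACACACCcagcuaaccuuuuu
These 4 seeds are all different. miR-127 lies within the annotated span of Rtl1, a protein-coding imprinted gene, and the hairpin of miR-134 begins 293 bases past that of miR-382.

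The next set is shown because its values separated or nearly separated the Brca1 and Brca2 samples within a tissue.
miR-205 (miR-205-5p, chr1:193507503-193507524, minus strand): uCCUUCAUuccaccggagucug
miR-204 (miR-204-5p, chr19:22750610-22750631, plus strand): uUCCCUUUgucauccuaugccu
miR-34b-3p (chr9:51103574-51103595, minus strand): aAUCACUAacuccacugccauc
miR-34b-5p (chr9:51103610-51103632, minus strand): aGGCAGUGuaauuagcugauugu
miR-449a (miR-449a-5p, chr13:113037549-113037570, plus strand): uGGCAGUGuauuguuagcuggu
miR-204 lies within Trpm3, miR-449a within Cdc20b and miR-205 within its long noncoding host gene Mir205hg. miR-34b-5p and miR-449a share the seed GGCAGUG, whereas the other arm of the same hairpin, miR-34b-3p, has another seed. miR-135a, which is described further on, has 2 gene copies with an identical mature sequence (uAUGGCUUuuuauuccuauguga).

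Across FT and M together, with tissue as a covariate, 2 of 566 miRNAs passed an adjusted p of 0.05 in edgeR (0.353% of those tested). Both were higher in the Brca1 samples and both belong to the Dlk1-Dio3 cluster, an imprinted region whose miRNAs are expressed from the maternal chromosome. No miRNA was called lower, and 17 had an unadjusted p under 0.05. The median log2 difference, Brca1 minus Brca2, was -0.18 over all 566 miRNAs.

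miR-382 was at a normalized count of 322.1 in FT2, against 27.6 in FT1, 23.8 in FT3, 79.5 in FT4 and 46.9 in FT5. In the tumors it was at 1032 in M2 and 138.5 in M6, against 26.8 in M1, 27.6 in M3 and 67.7 in M4. Every Brca1 sample was thus above every Brca2 sample, in both tissues. The log2 difference was 3.48 ± 0.83 (SE, 3 against 7 samples), with an edgeR adjusted p of 0.0322. An exact permutation test over the 50 splits that keep 1 Brca1 sample in FT and 2 in M gave a two-sided p of 0.02, the smallest it can give. The permutation p-values here and below are not adjusted over the miRNAs tested. They use the same samples whose edgeR p-values chose the miRNAs, so they are not separate evidence for a difference. The counts lay above the detection level in 6 of the 10 samples, and FT3, M1, M3 and M4 were below theirs. The Brca2 side in the tumors was thus background, and the size of the difference there is not a measured fold.

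miR-127, known for its antisense match to Rtl1, was at 535.3 in FT2, against 8.03 in FT1, 38.9 in FT3, 35.8 in FT4 and 12.5 in FT5. In the tumors it was at 141.6 in M2 and 27.3 in M6, against 10.7 in M1, 27.6 in M3 and 41.1 in M4. It lay above the detection level in 3 of 3 Brca1 samples and in 0 of 7 Brca2 samples, but M6 was only just above it and overlapped with M3 and M4. The log2 difference was 3.11 ± 0.74 (SE), with an edgeR adjusted p of 0.0322, and the exact permutation test gave an unadjusted p of 0.06.

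Both calls depended on single samples and on the processing. Each was past the threshold in 10 of 31 alternatives, and each kept its direction in all 31. Without FT2, miR-382 was called at a log2 difference of 3.84, whereas miR-127 was at 1.66 with an edgeR adjusted p of 0.156. Without M2, which held the highest miR-382 value, miR-382 was at 2.39 (adjusted p = 0.273) and miR-127 at 3.25 (adjusted p = 0.160).

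**Figure D1:**
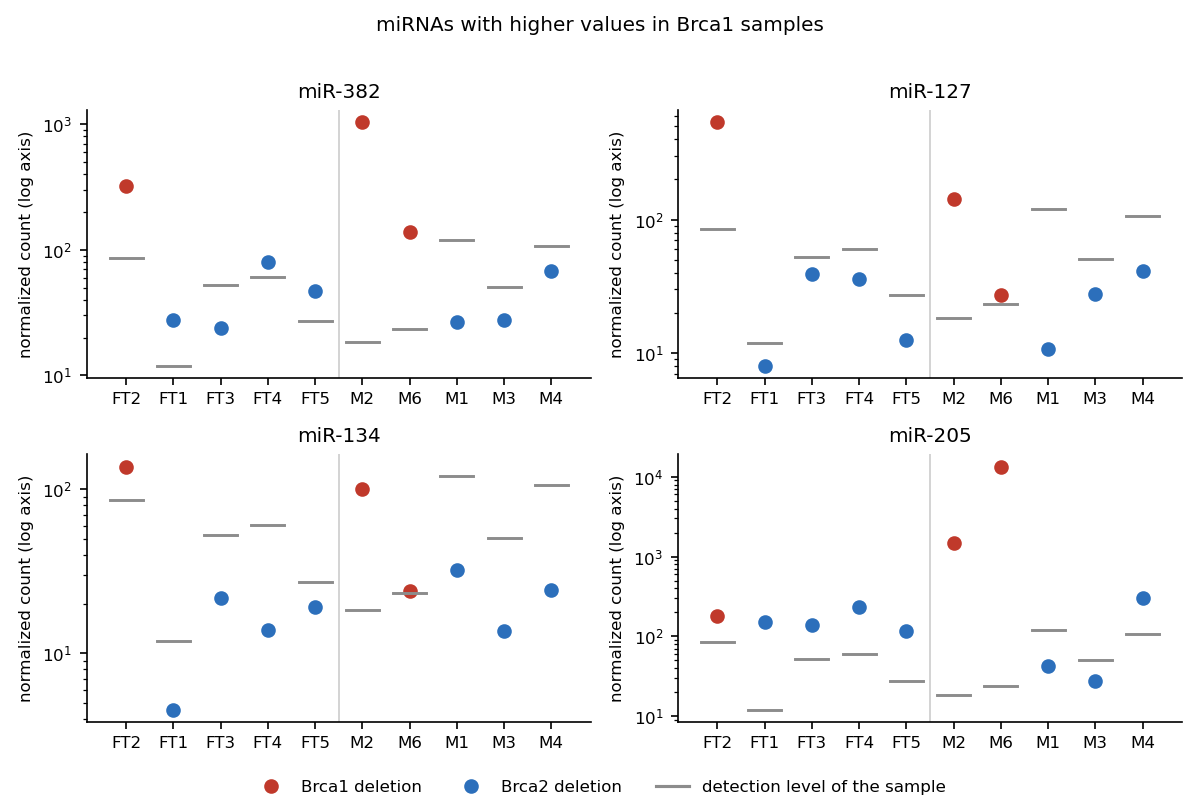
Normalized counts on a log axis in each induced sample, with FT left of the vertical line and M right of it. Red points are Brca1 and blue points Brca2 samples, and each gray bar is the detection level of that sample. miR-382 was above every Brca2 value in FT2, M2 and M6, miR-127 and miR-134 were near the detection level in M6, and miR-205 differed in M and not in FT2.

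Most of the Dlk1-Dio3 cluster was near background. Of 49 members on the panel, with miR-382 and miR-127 included, 23 were above the detection level in no induced sample, and 4 had a mean count of at least 50. Their median log2 difference was 0.30, against -0.18 over all miRNAs, and 37 of 49 were above 0 (204 of 566 over all). Without FT2 the median was -0.53 with 18 of 49 above 0, against -1.20 with 85 of 566 above 0 over all miRNAs.

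miR-134, a neighbor of miR-382, was at 137.4 in FT2, against 4.54 in FT1, 21.6 in FT3, 13.9 in FT4 and 19.1 in FT5. In the tumors it was at 100.6 in M2 and 23.9 in M6, against 32.1 in M1, 13.8 in M3 and 24.2 in M4. It was high in FT2 and M2 but not in M6, with a log2 difference of 2.26 ± 0.66 (SE) and an edgeR adjusted p of 0.226. It was named after its values were seen, because it passed under 3 alternatives.
miR-376c was at 280.3 in M2 and 73.7 in M6, against 16.9 to 26.8 in the Brca2 tumors, but at 23.7 in FT2, within the 20.7 to 41.1 of the other FT. Its log2 difference was 2.01 ± 0.83 (SE), and it did not pass (edgeR adjusted p = 0.998). miR-329, also named after its values were seen, was at 42.6 in FT2 against 18.1 to 28.1 in the other FT, and at 191.8 in M2 and 57.3 in M6 against 13.8 to 41.1 in the other M. The groups did not overlap in either tissue, but FT2 was below its own detection level of 85.5 on this scale, 3 of the 10 samples were above theirs, and the edgeR adjusted p was 0.998. In the control tubes, which carried floxed and not deleted alleles, miR-382 lay between 32.0 and 67.9 and miR-127 between 9.67 and 28.1.

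Separation of the groups in both tissues was found for 5 miRNAs with Brca1 higher (0.883% of 566) and for 5 with Brca1 lower (0.883%). With labels assigned at random, 1 of the 50 splits would separate a given miRNA in a given direction, a share of 0.02. The shares found were below that, so the separated miRNAs are listed as values and not as an excess. The higher ones were miR-382, miR-329, miR-31, miR-10a and miR-1274a, and the lower ones were miR-135a, miR-204, miR-34b-3p, miR-138 and miR-1899. miR-10a was above the detection level in 10 of the samples, miR-135a in 9, miR-382 and miR-138 in 6, miR-31 and miR-204 in 4, miR-329 and miR-34b-3p in 3, miR-1274a in 1 and miR-1899 in none. Of these 10, only miR-382 passed the adjusted threshold. For miR-204 and miR-34b-3p every M value was below the detection level of its sample, so their order in M lay within background. That level was 18.4 in M2 and 23.5 in M6 on the normalized scale, against 119.6, 50.3 and 106.5 in M1, M3 and M4. The part of this background difference in the separations was not tested.

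By the rule for named miRNAs, the list of higher miRNAs was filled to 10 with those of lowest unadjusted p and a mean count of at least 50, and all of the added ones were short of the threshold (edgeR adjusted p from 0.269 to 0.998). miR-205, an miRNA of basal and squamous epithelia, was at 1484 in M2 and 13448 in M6, against 42.8 in M1, 27.6 in M3 and 299.7 in M4. M1 and M3 were below their detection levels of 119.6 and 50.3, so the difference from those tumors is not a measured fold. In the tubes miR-205 was at 180.0 in FT2, within the range of 116.6 in FT5 to 230.6 in FT4. The log2 difference was 4.80 ± 1.46 (SE) over both tissues, 2.37 without M6 (edgeR adjusted p = 0.812) and 5.92 without FT2 (edgeR adjusted p = 0.000828). miR-31, whose gene lies on chromosome 4, was at 68.7 in FT2 against 28.6 to 47.5, and at 39.1 in M2 and 148.8 in M6 against 16.5 to 29.4. FT2 was below its own detection level of 85.5, and 4 of the 10 samples were above theirs. The mean count of miR-31, 51.2, was just past the minimum of 50 and included a count of 218 in M6. The log2 difference was 1.57 ± 0.69 (SE), with an unadjusted exact permutation p of 0.02, and was 0.78 without M6 and 2.003 without FT2. miR-196a, from the Hox clusters, was at 208.5 in FT2, 1092 in M2 and 318.7 in M6, but M3 was at 575.9 and overlapped. The remaining 4 named miRNAs, miR-2140, miR-2141, miR-1944 and miR-532-5p, were high in FT2 but did not exceed the range of the Brca2 tumors in M2 or M6. For example, miR-2140 was at 1308 in FT2 against 19.5 to 29.4 in the other FT, but at 146.2 in M2 and 157.0 in M6 against 456.8 to 1672. Each of these 4 turned direction when FT2 was left out.

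The named miRNAs with lower values in Brca1 samples were all short of the threshold (edgeR adjusted p from 0.623 to 0.998). miR-135a, abundant in the tube, was at 407.4 in FT2, against 6459 in FT1, 11694 in FT3, 27238 in FT4 and 6362 in FT5. In the tumors it was at 18.6 in M2 and 47.8 in M6, against 82.9 in M1, 60.6 in M3 and 582.4 in M4. The groups did not overlap in either tissue, and the tumors of both genes were below all control tubes, which lay between 5904 and 15017. In the tumors the separation was partly at background. M2 was only just above its detection level of 18.4, and M1 was below its level of 119.6. M6 was close to M3, whose level was 50.3. The log2 difference was -3.55 ± 1.25 (SE), with an edgeR adjusted p of 0.623 and an unadjusted exact permutation p of 0.02. It was called with DESeq2 (adjusted p = 0.00611), and without FT2 the edgeR difference was -2.86 (adjusted p = 0.129).

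miR-204 was at 61.6 in FT2, against 621.6 in FT1, 1061 in FT3, 89.5 in FT4 and 1171 in FT5. In the tumors it was at 3.73 in M2 and 13.6 in M6, against 34.8 in M1, 13.8 in M3 and 31.4 in M4. FT2 was close to FT4, M6 was close to M3, and 4 of the 10 samples, all of them Brca2 tubes, were above their detection level. The log2 difference was -2.28 ± 1.09 (SE), and -1.59 without FT2.

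The miRNAs of the miR-34 and miR-449 families, which mark multiciliated cells, had low values in FT2 and in all M. miR-34b-3p was at 18.9 in FT2, against 65.6 in FT1, 166.4 in FT3, 21.9 in FT4 and 264.3 in FT5. FT4, a Brca2 sample, was near FT2. miR-34c had a count of 1 in FT2 and FT4 and in every M, whereas it was at 295 in FT1, 411 in FT3 and 2014 in FT5. Its difference therefore rested on FT1, FT3 and FT5, and the edgeR adjusted p was 0.998. miR-34b-3p had a log2 difference of -2.20 ± 0.86 (SE), and -1.86 without FT2, with 3 of the 10 samples, all of them Brca2 tubes, above their detection level. In the control tubes, miR-34b-3p lay between 152.5 and 544.2. miR-34c lay between 0.655 and 2449 there, so a value at background was also found without induction.

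**Figure D2:**
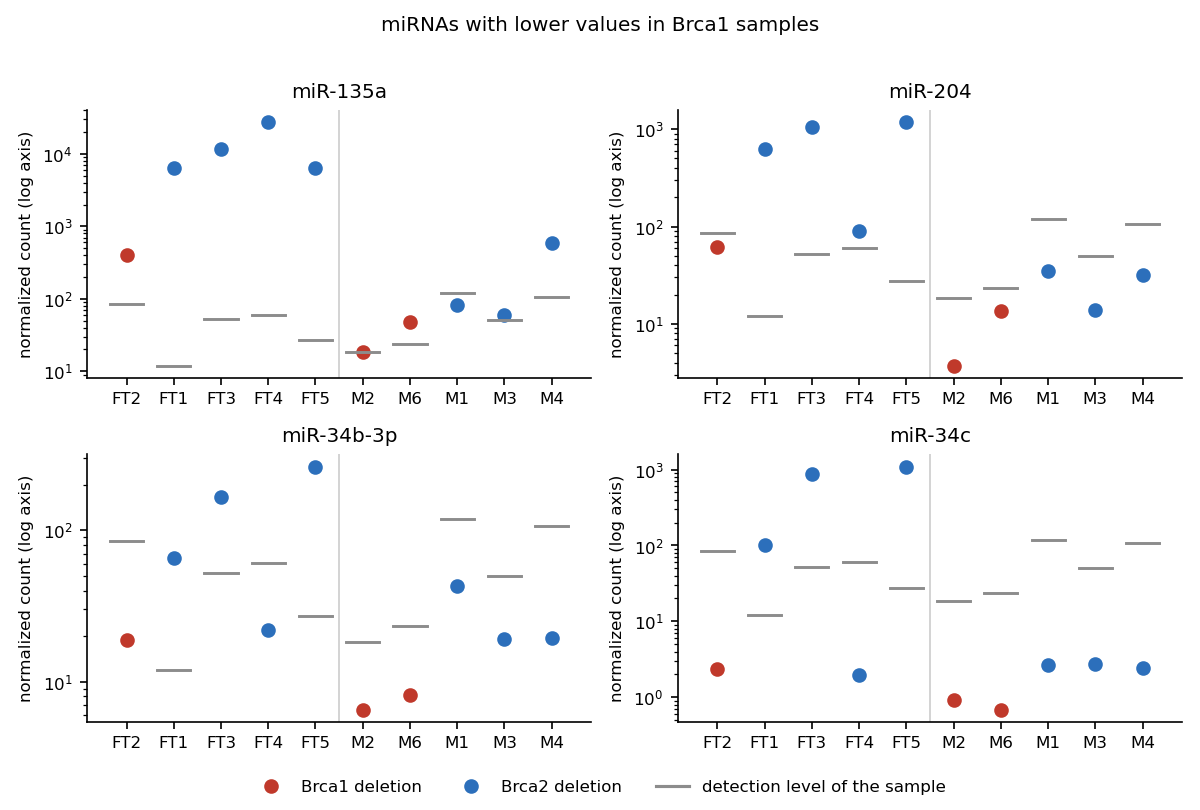
Normalized counts on a log axis in each induced sample, with FT left of the vertical line, Brca1 samples in red, Brca2 samples in blue and gray bars for the detection level. miR-135a was lower in FT2 than in the other FT, while miR-204, miR-34b-3p and miR-34c in FT2 were close to those of FT4.

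The remaining lower miRNAs did not separate the groups. miR-375 was at 168.2 in FT2, within the 125.3 to 662.1 of the other FT, and in the tumors its difference rested on M4 at 4978, the others being between 13.8 and 28.9. miR-1, an miRNA of muscle, was at 175.3 in FT2 against 347.7 to 968.2, whereas in the tumors M6 and M1 were both at 32.1. miR-218 was at 23.7 in FT2 against 58.6 to 371.7, but M2 and M1 were at 40.0 and 40.1. miR-100 was at 3193 in FT2, within the FT range of 2500 to 12720, and at 708.7 in M2 and 419.7 in M6 against 1436 to 4339 in the other M. miR-449a was at 28.4 in FT2 and miR-34b-5p also at 28.4.

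The miRNAs on which the study concentrated did not pass. miR-21 was at 12694 in M2 and 11052 in M6, against 3751 to 4731 in the Brca2 tumors, so that the tumors did not overlap. In the tubes FT2 was at 2869, within 1391 to 4288, and the log2 difference was 0.96 ± 0.97 (SE, edgeR adjusted p = 0.998). miR-126-3p, an endothelial miRNA, was at 54989 in FT2 against 2825 to 22324 in the other FT, and at 17770 in M2 and 7720 in M6 against 17273 to 19856. miR-146a, an NF-kB target that can bind Brca1 mRNA, was at 1073 in FT2 against 248.5 to 618.1, while M2 and M6 lay within the range of the Brca2 tumors.

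No member of the other lists passed the threshold. The ciliated list had a median log2 difference of -1.43 with 6 of 6 below 0, where 362 of all 566 miRNAs were below 0. The smooth muscle and stroma list had a median of -1.32 with 5 of 5 below 0. Without FT2 these medians were -1.51 and -1.55, against -1.20 over all miRNAs. Its summed normalized count was 626.5 and 1037 in the Brca1 tumors, against 1430 to 3821 in the Brca2 tumors, and 4823 in FT2 against 3111 to 16869 in the other FT. The part of smooth muscle content in these results was not tested. In bulk tissue, fewer cells of a type and less RNA per cell cannot be told apart.

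No member of the lists tied to Brca function passed either. The 4 miRNAs whose primary transcripts Brca1 acts on (let-7a, miR-16, miR-145 and miR-34a) had a median of -0.16, from -1.32 to 0.00. The 7 that target Brca1 or are repressed by it had a median of -0.35, and the 6 tied to homologous recombination and the damage response had a median of -0.18. Without FT2 these medians were -1.04, -0.75 and 0.01, where the median over all 566 miRNAs was -1.20. The let-7 family had a median of 0.00 with 5 of 9 above 0 and a range from -0.31 to 0.68, and let-7b, the most abundant, was at 0.25. Without FT2 its median was -0.73 with 2 of 9 above 0. The miR-17-92 family and its paralogs had a median of -0.14 over 11 probes, and the 5 mesenchymal miRNAs had a median of 0.06, which were -0.62 and 0.03 without FT2. In the mesenchymal list miR-199a-3p was at 13035 in M2 and 5812 in M6 but at 4601 in M3, and miR-143 and miR-145 lay in the other direction at -1.32 each. miR-210, the hypoxia-induced miRNA, had a log2 difference of 1.5 ± 0.97 (SE), with 1732 in FT2 against 42.5 to 373.8 in the other FT and 441.4 and 915.1 in M2 and M6 against 738.4 to 1635. Without FT2 it was at -0.70.

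Markers of other cells gave these values. The erythrocyte list had a median of -0.42, the epithelial list of -0.32, the leukocyte list of -0.56, the liver list of -0.75 and the endothelial list of 0.30. Without FT2 the same medians were 0.07, -1.31, -1.18, -1.51 and -0.01, so that the erythrocyte and endothelial medians turned. The median over all 566 miRNAs without FT2 was -1.20. The pancreas list was at -0.72 with 3 of 4 members above the detection level in no sample, and the ovary list at -0.59, which were -2.08 and -2.17 without FT2. M6, the ovarian tumor, had a summed ovary list of 58.7 against 39.1 in M2 and 71.6 to 280.3 in the Brca2 tumors. The miR-290-295 and X-linked gonadal clusters had medians of -0.26 and -0.53 (-1.48 and -1.30 without FT2), with 6 of 10 and 18 of 19 members above the detection level in no sample. The summed epithelial list ranged from 242.5 to 42009 in the Brca2 tumors, against 2235 and 8891 in M2 and M6, and the Brca2 tumors thus spanned the Brca1 tumors in these markers.

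**Figure D3:**
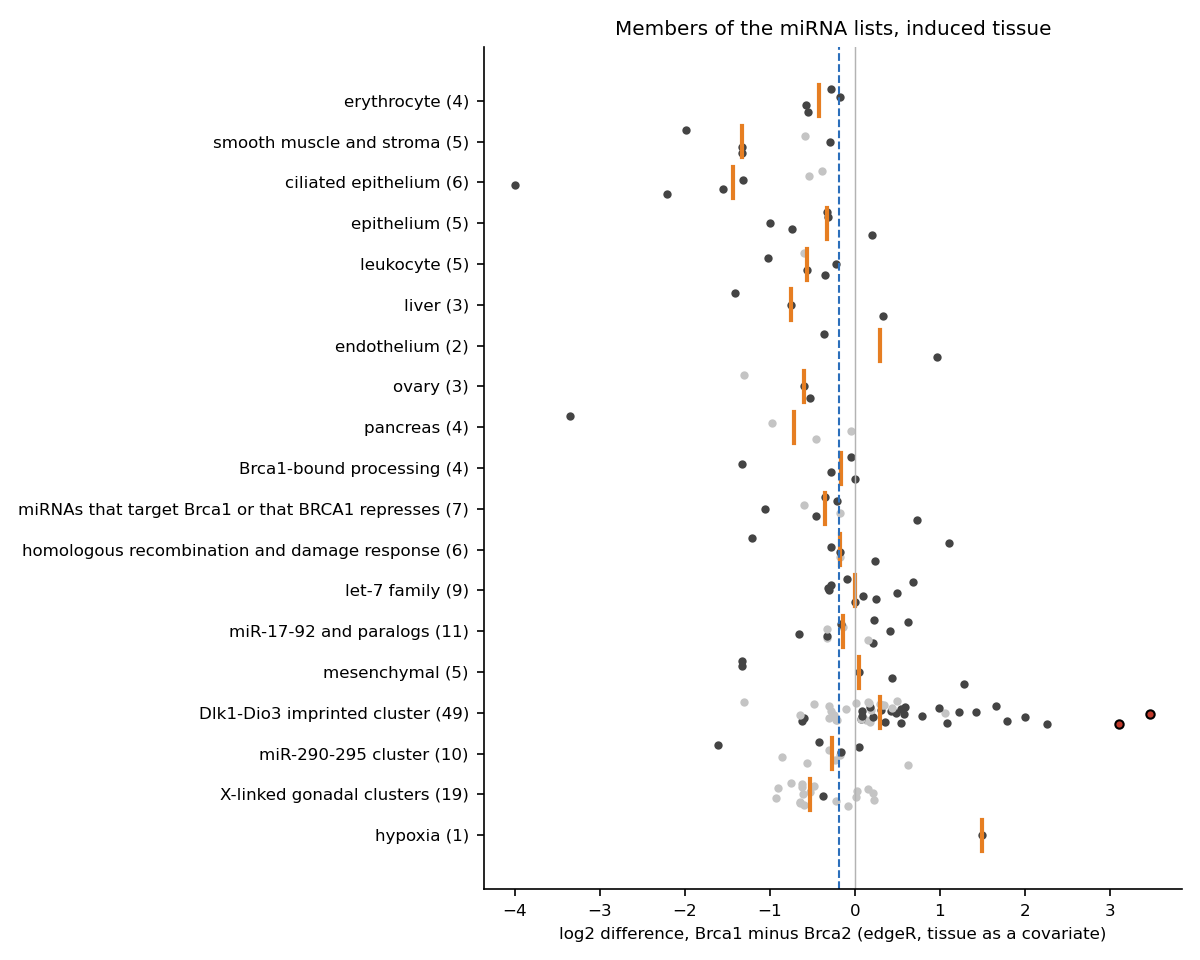
Log2 difference, Brca1 minus Brca2, of each list member, with the number of members in parentheses. Dark points were above the detection level in at least 1 induced sample, pale points in none, and red points passed the adjusted threshold. Orange bars are list medians and the dashed line is the median of all 566 miRNAs at -0.18. The 2 red points, miR-382 and miR-127, are in the Dlk1-Dio3 cluster.

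In the metastatic tumors alone, 2 Brca1 against 3 Brca2 samples, 104 miRNAs passed (18.4% of those tested), 6 higher and 98 lower in the Brca1 tumors. Of the 98 lower, 82 were above the detection level in no M sample and 7 had a mean count of at least 50. The detection level on the normalized scale was 18.4 in M2 and 23.5 in M6, against 119.6, 50.3 and 106.5 in M1, M3 and M4, and this difference in background runs the same way as the 98. Its part in them was not tested. With TMM scaling or a mean count of at least 50, no miRNA passed.
The 6 higher were miR-205, miR-382, miR-376c, miR-720, miR-329 and miR-183. miR-205 had a log2 difference of 5.92 ± 1.25 (SE, edgeR adjusted p = 0.0309), and miR-382 of 3.84 ± 0.998 (SE, edgeR adjusted p = 0.0322). These differences match those given above without FT2, since both rest on the same tumors. For miR-382 the Brca2 tumors were below their detection levels, and for miR-205 M1 and M3 were below theirs. Among the lower miRNAs with counts, miR-9 rested on M4 at 4425, the other tumors lying between 10.2 and 29.4. miR-1224 was at 494.5 in M2 and 750.0 in M6, against 13485, 4075 and 2712 in M1, M3 and M4.

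**Figure D4:**
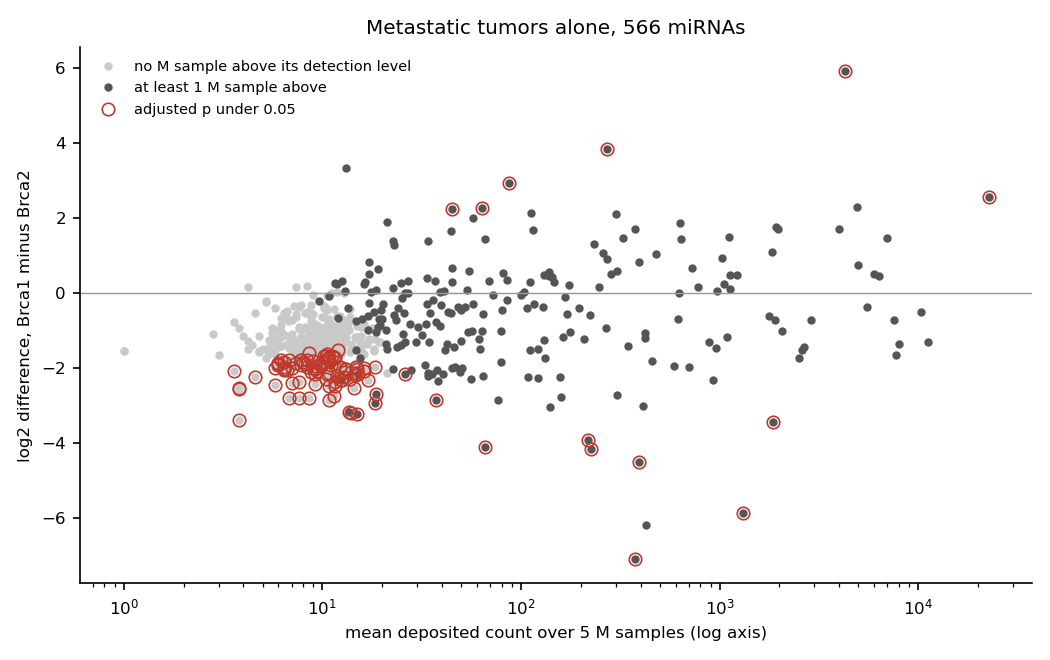
Log2 difference, Brca1 minus Brca2, in the metastatic tumors alone against the mean deposited count over the 5 tumors, on a log axis, for 566 miRNAs. Pale points were above the detection level in no M sample, dark points in at least 1, and red rings mark an adjusted p under 0.05. Most of the 98 ringed points below 0 are pale, at counts of background.

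The difference between Brca1 and Brca2 was not the same in tube and tumor for 109 miRNAs by the interaction term (19.3% of those tested), of which 69 were above the detection level in at most 2 samples. With TMM scaling 2 passed. Since FT2 is the only Brca1 tube, this test sets 1 sample against the rest and cannot tell FT2 from the genotype. For miR-382 the difference in FT minus that in M was -0.98 (edgeR adjusted p = 0.570), for miR-127 it was 2.90 (edgeR adjusted p = 0.0796) and for miR-205 it was -5.73 (edgeR adjusted p = 0.0383).

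Before deletion, the Brca1-floxed and Brca2-floxed control tubes did not differ in any miRNA past the threshold (0.0% of 566, 11 with an unadjusted p under 0.05 in edgeR, and 0 with DESeq2 or limma). miR-382 was at a log2 difference of -0.01 and miR-127 at -0.26. Against these controls, no miRNA passed for the induced tissue either (0.0% of 566, 8 with an unadjusted p under 0.05, and 0 with DESeq2 or limma). In that contrast miR-382 was at 3.53 and miR-127 at 3.44, both with an edgeR adjusted p of 0.989, so that the difference from the control tubes was not resolved.

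Plasma from the FT2 mouse (TS1) was compared by value only with plasma from the mice of FT3 to FT5 (TS2 to TS4), on the plasma scale. miR-382 was at 26.2 in TS1, against 54.4 in TS2, 95.8 in TS3 and 5.61 in TS4, and between 12.9 and 51.7 in the control plasma samples. miR-127 was at 5.51 in TS1, against 7.61 to 15.02 in TS2 to TS4. On that scale the detection level was 51.0 in TS1, 32.0 in TS2, 67.6 in TS3 and 16.4 in TS4. Every miR-127 value of these samples was below it, as were the miR-382 values of TS1 and TS4. TS1 did not stand out for either miRNA, but both of its values were background and give no measured difference.

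Across the 141 miRNAs whose counts averaged 50 or more, M2 and M6 had the highest correlation of any pair of induced samples (Pearson's r = 0.931). The points are miRNAs and not samples, and share libraries. FT2 correlated with M2 at 0.707 and with M6 at 0.691, but with M4, a Brca2 tumor, at 0.887 and with FT4 at 0.804. Within FT, the median r was 0.811 among Brca2 samples (6 pairs) and 0.553 between the genes (4 pairs, all with FT2). Within M, it was 0.718 among Brca2 samples (3 pairs) and 0.697 between the genes (6 pairs).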

How the data were processed

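miRNA levels were measured with the NanoString nCounter mouse miRNA assay. The authors deposited barcode counts for 626 probes per sample, unnormalized; they normalized tissue to the 100 most abundant miRNAs in nSolver, which was repeated here without background subtraction. The 60 other probes served as controls. No column was left unmatched (0).

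The 566 miRNAs were tested in R 4.3.3 with edgeR 4.0.16 (quasi-likelihood test, with geometric means as library sizes, tissue as a covariate, Benjamini-Hochberg adjustment, threshold 0.05). Alternatives used DESeq2 1.42.0, limma 3.58.1, TMM, median, miR-425 and quantile scaling, count minimums of 20 and 50, pseudocounts of 1 and 10, the methods' t-test, other covariates and sample subsets, and each sample left out. Own top 100, a floor, background subtraction and leaving out FT2 with M6 were chosen after seeing the data. The fit was tested on simulated data. Figures and permutation tests used Python 3.11.15. Counting precision follows the total counts given above, and p-values measure only the spread between these samples.

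Groups followed the study's genotype list. Results on the other engineered alleles are not reported here. Members were set by genotype and not by a measured value, although earlier results of these data were known when members and lists were chosen. Named miRNAs were all past the threshold, filled to 10 per direction by lowest unadjusted p at a mean count of at least 50, plus the 4 miRNAs that the study measured by qPCR. The 3 most abundant members of each list were also eligible, and only some of them are given. Cell type lists came from general knowledge. M5 and CS1 were not analysed here.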

Additional observations from a re-analysis of the deposited data

Results flagged for a closer look

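Of 46 groups of 5 samples examined (23 named miRNAs in FT and in M), 4 held a sample far from the others, and chance marks about 1 in 20. miR-2140 was far above the other FT in FT2, at a normalized count of 1308. In M, miR-375 was far above the others in M4 at 4978, miR-218 in M3 at 272.8, and miR-126-3p was far below them in M6 at 7720.

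The Brca1 minus Brca2 difference in FT minus that in M, on the log2 scale by edgeR's interaction term, passed the threshold for 6 named miRNAs. It was -5.73 for miR-205, 8.40 for miR-2140, 6.61 for miR-2141, 6.02 for miR-1944, 4.63 for miR-532-5p and 4.95 for miR-375. FT2 is the only Brca1 sample in FT, so that for each of them sample and genotype cannot be told apart.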

How the results depend on the processing

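For Brca1 minus Brca2 in induced tissue, 2 miRNAs passed. With FT2 and M6 both left out, M2 was the only Brca1 sample, so no number is given. With TMM and with median scaling the number was 3, with miR-127 among them and without miR-382. The number was also 3 with no tissue covariate, and it was 4 with DESeq2. It was 0 with miR-425 scaling, quantile normalization, limma, the methods' t-test, a mean count of at least 20 or 50, a pseudocount of 10, a floor at the detection level and negative controls subtracted, and 16 in heterozygous samples alone. Leaving out each sample gave 0 to 16, the 16 without FT2. With the replicate number as a random block, 2 passed, miR-382 and miR-135a, and miR-127 did not (adjusted p = 0.0915). The numbers do not pair the samples, since same-numbered FT and M differed in their Brca alleles, so this block is no check on shared mice. Deviations of same-numbered FT and M correlated between -0.37 and 0.31.

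In metastatic tumors alone, 104 passed, against 0 with TMM, 0 at a mean count of at least 50, 3 with limma and 142 with DESeq2, and 0 to 182 with each sample left out. The tube against tumor difference gave 109, against 2 with TMM, 49 with limma, 20 at a mean count of at least 50 and 7 to 169 with each sample left out. The control tubes gave 0 to 19 (19 without CT4), and induced tissue against control tubes 0 to 2 (2 without FT2).

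Of 713 values for the 23 named miRNAs under alternatives, 19 turned direction, in 8 miRNAs. Without FT2, miR-2140 was at -2.72, miR-2141 at -1.52, miR-1944 at -1.66, miR-532-5p at -1.04, miR-126-3p at -0.51 and miR-146a at -0.0088; the highest values with another sample left out were 4.27, 3.71, 3.02, 2.35, 1.52 and 1.10. Without FT2 and M6 the first 5 were at -2.77, -1.59, -1.53, -0.65 and -0.033. In heterozygous samples alone the same 5 were at -1.59, -0.82, -2.69, -0.36 and -0.64, miR-218 at 0.63 and miR-34b-5p at 0.038. With the floor miR-2140 was at -0.13. The causes were not tested. Low counts limit the Dlk1-Dio3 cluster, of which 23 of 49 members were never above background.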
